A study of Homo sapiens with 12 samples.

Results

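The 42 genes described here act in G2 phase and mitosis, the part of the cell cycle in which a cell that has copied its DNA prepares to divide and then divides. They were taken as a fixed list of symbols from the authors' table of counts per gene, and all 42 are among its 59653 symbols. All 42 also had enough reads to be tested, with 24671 genes tested in all. Total RNA was sequenced from neurons made from IMR-90 induced pluripotent stem cells, IMR-90 being a human fibroblast line. The 12 libraries form 2 groups of 6: siNC, given negative control siRNA, and siZCC, given an siRNA against ZCCHC17, which codes for a zinc knuckle protein. All samples share 1 cell line, so the comparison does not cover differences between donors. The labels do not say whether the replicates are separate cultures, and p-values then measure only the spread between these samples.

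Progress through G2 and mitosis is driven by the kinase CDK1 bound to cyclin A and then cyclin B, and by the Aurora and Polo kinases. Spindle motors and microtubule-associated proteins build the spindle, kinetochores tie chromosomes to it, and a checkpoint holds back the anaphase-promoting complex, a ubiquitin ligase, until all are attached. Most of these genes are transcribed late in the cell cycle and are repressed in resting cells by the DREAM complex, which sits at a promoter element named the cell cycle genes homology region. Mature neurons do not divide, whereas neural progenitors do.

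After ZCCHC17 siRNA, 39 of the 42 genes fell and 0 rose. Such calls rest on a threshold of 0.05 on the p from quasi-likelihood fits in edgeR, adjusted by Benjamini-Hochberg over every gene tested. Among all genes tested, 22.2% were called, 10.8% as lower and 11.4% as higher in siZCC. The median log2 fold change (siZCC over siNC) of the 42 genes was -0.39, or 76.1% of the control level, beside a median of -0.0016 over all genes tested. In 38 of the 42 genes all 6 siZCC libraries lay below all 6 siNC libraries, against 4.5% of all genes tested. The called genes kept between 59.2% (KIF20A) and 86.5% (CDK1) of their control level: 11 were under 70%, 21 between 70% and 80%, and 7 between 80% and 90%. The 3 genes not called were CDC25B, NUSAP1 and PRC1. In these bulk samples, fewer cells expressing these genes and less RNA of them per cell cannot be told apart.

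**Figure D1:**
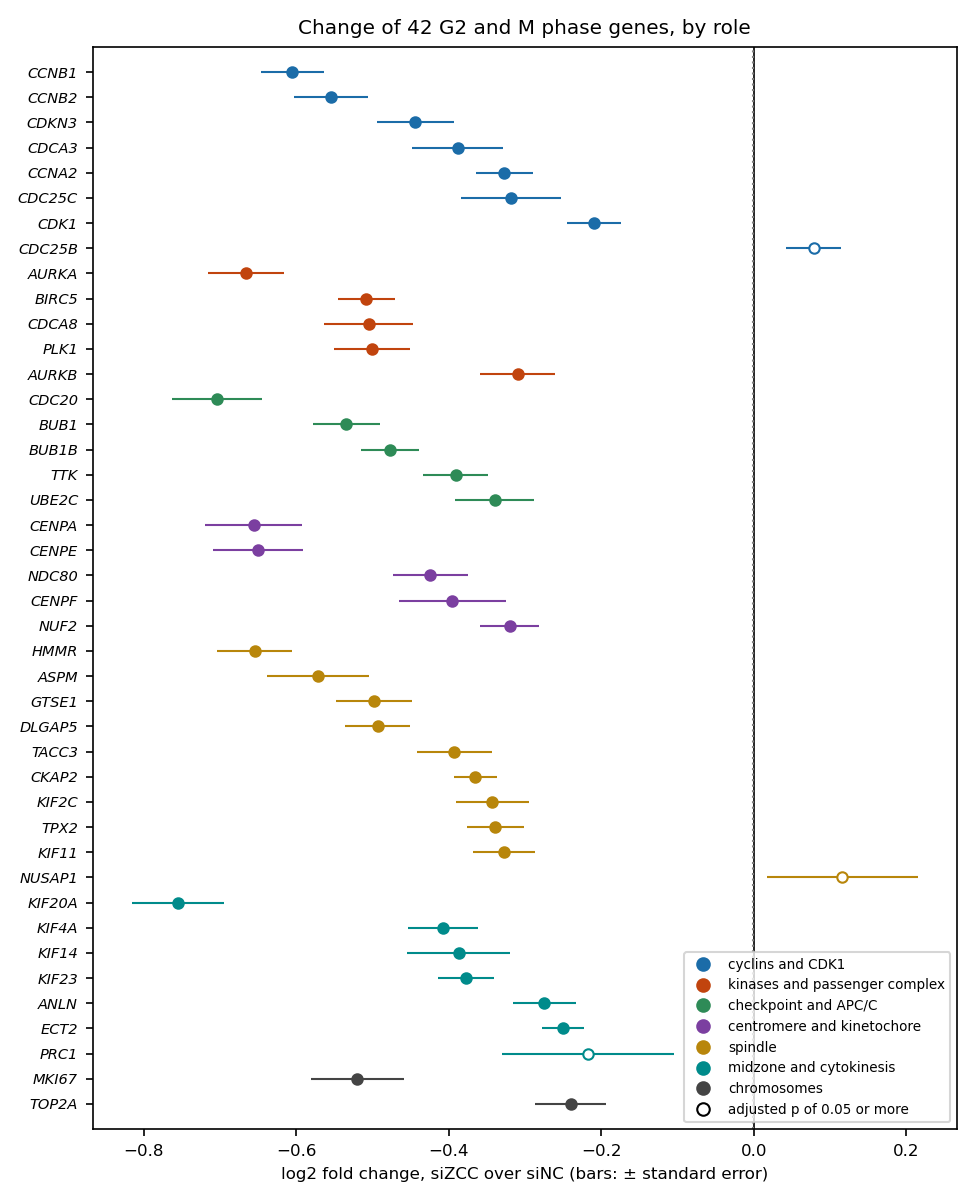
Log2 fold change of each of the 42 genes (x axis, siZCC over siNC, bars are the standard error), grouped and coloured by role; open symbols have an adjusted p of 0.05 or more. The 39 filled symbols all lie below 0, from -0.76 for KIF20A to -0.21 for CDK1, and only CDC25B and NUSAP1 lie above 0.

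The targeted transcript was checked in every library. ZCCHC17 ranged from 53.99 to 61.0 CPM (counts scaled to a common library size with trimmed mean of M values factors) with a median of 57.2 in siNC, and from 9.37 to 10.6 with a median of 9.85 in siZCC. The groups did not overlap, and ZCCHC17 RNA was left at 17.6% of control (exact two-sided permutation test, p = 0.00216, the smallest that 6 against 6 libraries can give). The total count per library lay between 90755953 and 120023356 for siNC and between 76115083 and 105389055 for siZCC. Of these, the 42 genes took 162721 to 225931 counts per library in siNC and 104700 to 138987 in siZCC. Apart from NUSAP1 and PRC1, with as few as 65 and 72 counts in a library, no member had fewer than 364 (CDKN3). Counting error is therefore smaller for the other members than for NUSAP1 and PRC1.

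Neuron and neural progenitor markers were both abundant as sums in these cultures, which the labels call neurons and whose titles carry the letters NPC. Single markers differed widely. Mean levels of neuron markers in siNC ran from 1.27 CPM for RBFOX3 to 1027 CPM for MAP2. Those of progenitor markers ran from 6.09 CPM for HES5 to 3550 CPM for VIM. All 14 neuron markers examined were detected, summing to 3651 to 4087 CPM in siNC and 3332 to 3775 CPM in siZCC, with 6 lower and 1 higher in siZCC. The 10 neural progenitor markers summed to 5895 to 6273 CPM in siNC and 5946 to 6473 CPM in siZCC, with FABP7 lower and SOX2, PAX6 and HES5 higher. VIM alone, at means of 3550 CPM in siNC and 3595 CPM in siZCC, was the larger part of this sum. The 7 astrocyte markers summed to 1627 to 1851 and 1686 to 2007 CPM, with 1 lower and 2 higher. Oligodendrocyte lineage markers (147 to 184 and 149.9 to 184 CPM for 6 genes, with SOX10 under 0.1 CPM in every library) and the 6 microglia markers (1.35 to 2.61 and 1.42 to 2.44 CPM, P2RY12 under 0.1 CPM) overlapped between the groups. So did 5 pluripotent cell markers (55.8 to 62.4 and 50.95 to 57.99 CPM, TDGF1 under 0.1 CPM) and 6 mesenchymal markers (92.2 to 322 and 49.8 to 166 CPM). The 5 endothelial markers did not overlap, at 8.46 to 12.98 CPM in siNC and 5.90 to 7.75 CPM in siZCC; most of this was TEK, the 1 marker called, as lower. PDGFRA fell among the oligodendrocyte lineage markers, DNMT3B fell and NANOG rose among those of pluripotent cells, and LUM and DCN fell among the mesenchymal markers, all 6 of which had negative log2 fold changes. PDGFRA was at means of only 0.39 CPM in siNC and 0.25 CPM in siZCC, so low counts limit its precision. None of the microglia markers was called, and 0 of the 3 of them tested had an unadjusted p under 0.05. For comparison, 10.8% of all genes tested were called as lower and 11.4% as higher. The lower calls make up 42.9% of the neuron markers, above that share, and 14.3% of the astrocyte markers, near it. FABP7, the only lower call among the 10 progenitor markers, is also a share near 10.8%. Higher calls were 3 of the 10 progenitor and 2 of the 7 astrocyte markers, shares above 11.4%. Among the 14 neuron markers 1 was called as higher, a share below 11.4%. These lists are short, and their difference from all genes was not tested. The part of any of these cell types in the fall of the 42 genes was not tested.

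Promoter sequences are shown because the genes moved together and because promoters of late cell cycle genes are known to share elements. Of the 42 genes, 37 matched the RefSeq promoter table (GRCh38.p14), which gives 250 bases before and 50 bases after each start, with 46 promoters for these genes; AURKA, BIRC5, TPX2, TTK and UBE2C did not match. Each promoter was searched on both strands for the cell cycle genes homology region, whose letters were taken as TTTGAA, read as TTCAAA on the other strand, or as the palindrome TTCGAA. They were also searched for the CCAAT box, read as ATTGG on the other strand, to which the factor NF-Y binds. Matches of the motifs were allowed to overlap. The 120 bases just before the RefSeq start are printed for CCNB1, BUB1B, CENPE, HMMR, KIF20A and MKI67, which had the smallest p in their role, and for CCNB2 and PLK1, which were added because both motifs are present. Some GENCODE transcripts of these genes start further upstream. All are 5′ to 3′ on the gene's strand, with matches in capitals. The windows are chr5:69167030-69167149, chr15:59105026-59105145, chr16:23678769-23678888, chr15:40160949-40161068, chr5:163460512-163460631 and chr5:138178992-138179111 on the plus strand and chr4:103198344-103198463 and chr10:128126424-128126543 on the minus strand.
CCNB1: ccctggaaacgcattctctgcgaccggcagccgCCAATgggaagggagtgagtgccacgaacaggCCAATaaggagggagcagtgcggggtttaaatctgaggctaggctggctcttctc
CCNB2: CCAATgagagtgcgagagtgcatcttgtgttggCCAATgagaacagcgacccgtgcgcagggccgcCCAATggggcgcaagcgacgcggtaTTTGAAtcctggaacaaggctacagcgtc
PLK1: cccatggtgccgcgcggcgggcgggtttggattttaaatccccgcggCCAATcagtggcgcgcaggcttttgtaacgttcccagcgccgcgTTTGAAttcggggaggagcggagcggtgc
BUB1B: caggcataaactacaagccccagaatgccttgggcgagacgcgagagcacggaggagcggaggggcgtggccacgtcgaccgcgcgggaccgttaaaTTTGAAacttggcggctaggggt
CENPE: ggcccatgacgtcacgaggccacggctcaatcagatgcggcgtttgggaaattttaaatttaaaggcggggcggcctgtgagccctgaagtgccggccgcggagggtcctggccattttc
HMMR: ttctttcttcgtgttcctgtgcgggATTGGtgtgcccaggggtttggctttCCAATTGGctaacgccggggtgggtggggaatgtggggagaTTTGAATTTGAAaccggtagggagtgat
KIF20A: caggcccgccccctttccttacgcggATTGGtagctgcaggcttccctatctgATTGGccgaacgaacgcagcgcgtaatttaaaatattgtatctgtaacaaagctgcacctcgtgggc
MKI67: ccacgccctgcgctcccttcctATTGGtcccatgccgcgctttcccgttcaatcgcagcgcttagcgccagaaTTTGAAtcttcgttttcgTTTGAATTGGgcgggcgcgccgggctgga

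In these windows CCNB2 holds several CCAAT boxes followed by TTTGAA close to the start, and PLK1 holds 1 of each in the same order. The MKI67 window has TTTGAA in 2 places, and its second copy shares bases with a CCAAT box on the other strand. In HMMR, 2 copies of TTTGAA stand side by side downstream of CCAAT boxes. Of the letters searched for, CCNB1 and KIF20A show CCAAT boxes only, BUB1B shows TTTGAA only, and the CENPE window shows neither. Over the full 300 bases, 32 of the 46 promoters (69.6%) held the homology region letters, against 16.4% of all 35116 promoters in the table. CCAAT boxes were found in 33 of 46 (71.7%), against 34.6% of all promoters, and both motifs in 27 (58.7%), against 6.38%. By gene, 29 of the 37 held the homology region letters in at least 1 promoter. The 29 had a median log2 fold change of -0.41 (-0.70 to 0.12) and the other 8 of -0.38 (-0.76 to -0.31), so the ranges overlapped widely. A match describes letters in a window and does not show that a factor binds there. Other spellings of the homology region were not searched, so a promoter without a match may still hold the element.

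Cyclins and the regulators of CDK1 fell in 7 of 8 cases, with a median log2 fold change of -0.36. CCNB1, which codes for cyclin B1, the partner of CDK1 at mitotic entry, was at 47.5 to 53.1 CPM in siNC (median 50.6) and at 31.05 to 36.8 CPM in siZCC (median 32.3). The groups were separated by a wide gap, with siZCC replicate 5 at the top of its group. The log2 fold change of CCNB1 was -0.61 (SE 0.0410, adjusted p 1.17e-07). CCNB2, the second B-type cyclin, fell by 0.55 on the log2 scale (SE 0.0480). CCNA2, cyclin A2, which acts from S phase into early mitosis, fell by 0.33 (SE 0.0371). CDK1 itself changed least of all called members, with a log2 fold change of -0.21 (SE 0.0355), from a mean of 45.8 ± 2.13 to 39.6 ± 1.54 CPM (SD, n = 6 each).

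The remaining genes of this role include phosphatases and an adaptor. CDKN3, a phosphatase that acts on CDKs, fell by 0.44 (SE 0.0507) and CDCA3, a trigger of mitotic entry, by 0.39 (SE 0.0600) on the log2 scale. CDC25C, a phosphatase that activates CDK1, fell by 0.32 (SE 0.0655). The related phosphatase CDC25B was at 120.4 to 136 CPM in siNC (median 134) and at 128 to 147 CPM in siZCC (median 140.2). These ranges overlapped, and the log2 fold change of CDC25B was 0.08 (SE 0.0363, 95% interval 0.0074 to 0.15 before adjustment, adjusted p 0.136). CDC25B was the only well-measured member without a fall. Its level is not limited by counts, at 11016 to 16093 per library. Without siZCC replicate 2, its lowest siZCC library, it was called as higher (log2 fold change 0.10, adjusted p 0.0424).

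All 5 genes of the Aurora and Polo kinases and the chromosomal passenger complex fell, with a median log2 fold change of -0.50. BIRC5 codes for survivin, the subunit that brings the passenger complex to centromeres. It was at 36.99 to 39.3 CPM in siNC (median 37.3) and at 25.4 to 29.7 CPM in siZCC (median 25.8). No library of one group reached the other, and the log2 fold change was -0.51 (SE 0.0376, adjusted p 3.39e-07). AURKA, the kinase of spindle poles, showed the largest change of this role, -0.67 (SE 0.0497), from 15.96 ± 0.953 to 10.1 ± 0.613 CPM (SD, n = 6 each). AURKB, the kinase of the passenger complex, showed the smallest, -0.31 (SE 0.0489). CDCA8, which codes for borealin of the same complex, and the Polo kinase PLK1 each changed by -0.50 on the log2 scale (SE 0.0583 for CDCA8 and 0.0498 for PLK1).

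The 5 genes of the spindle checkpoint and of its target, the anaphase-promoting complex, all fell, with a median log2 fold change of -0.48. BUB1B codes for the checkpoint protein BubR1. Its level was 26.9 to 28.7 CPM in siNC (median 27.5) and 18.99 to 22.2 CPM in siZCC (median 19.5). The 6 siNC libraries lay close together and the highest siZCC value was again replicate 5; the log2 fold change was -0.48 (SE 0.0381, adjusted p 5.84e-07). CDC20, the activator of the anaphase-promoting complex that the checkpoint holds back, had the largest change of this role, -0.70 on the log2 scale (SE 0.0589), from 32.2 ± 1.24 to 19.8 ± 2.22 CPM (SD, n = 6 each). BUB1, a checkpoint kinase, fell by 0.53 (SE 0.0441), TTK, the kinase MPS1, by 0.39 (SE 0.0430), and UBE2C, the ubiquitin-conjugating enzyme used by the complex, by 0.34 (SE 0.0523).

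The subunits of the same ubiquitin ligase showed small changes in both directions. Of 15 genes, subunits and the interphase activator FZR1, 2 fell (ANAPC15 and CDC27) and 3 rose (ANAPC1, ANAPC2 and CDC16), with log2 fold changes between -0.17 and 0.12 and a median of 0.0080. The lower calls make up 13.3% of the list, near the 10.8% of all genes tested. The 3 rises among 15 genes are a share above the 11.4% called as higher among all genes tested. None of the 5 calls held in every fit that left out a library. Those of CDC16 and CDC27 were also lost with a replicate block and without most single libraries. In edgeR's test ANAPC1 was lost without siZCC replicate 3 (adjusted p 0.0638) and ANAPC15 without siNC replicate 3 (0.0504). ANAPC2 was lost without siNC replicate 6 (adjusted p 0.0666), siZCC replicate 3 (0.0665) or siZCC replicate 5 (0.0661), and with no filter on low counts (0.0572). The difference between these genes and the 5 above was not tested.

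Centromere and kinetochore genes fell in 5 of 5 cases, with a median log2 fold change of -0.42. CENPE, a kinetochore motor that moves chromosomes to the spindle equator, was at 18.7 to 23.5 CPM in siNC (median 20.2) and at 11.5 to 14.1 CPM in siZCC (median 13.2). The groups did not overlap although siNC replicate 5 stood high, and the log2 fold change was -0.65 (SE 0.0592, adjusted p 1.70e-06). CENPA, the histone H3 variant that marks centromeres, fell by a similar 0.66 (SE 0.0631), from a low level of 7.94 ± 0.428 to 5.05 ± 0.467 CPM (SD, n = 6 each). NDC80 and NUF2, which pair in the complex that grips microtubules, fell by 0.42 (SE 0.0487) and 0.32 (SE 0.0385). CENPF, a large outer kinetochore protein, fell by 0.40 (SE 0.0696). CENPF varied more than most members within siNC (120 ± 16.8 CPM, SD, n = 6, with 107 to 145 CPM), and its lowest siNC library still lay above its highest siZCC library at 101 CPM.

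Of the 10 spindle genes, 9 fell, with a median log2 fold change of -0.38. HMMR, whose product organises spindle microtubules, was at 9.90 to 11.3 CPM in siNC (median 10.5) and at 6.35 to 7.10 CPM in siZCC (median 6.71). Both groups were tight and far apart, with a log2 fold change of -0.65 (SE 0.0488, adjusted p 3.39e-07). ASPM, a spindle pole protein whose loss causes microcephaly, fell by 0.57 (SE 0.0668), the microtubule tip protein GTSE1 changed by -0.50 (SE 0.0493) and DLGAP5, which stabilises fibres to the kinetochore, by -0.49 (SE 0.0432). TACC3 (-0.39, SE 0.0491) and CKAP2 (-0.36, SE 0.0284), both microtubule-associated, changed less. So did the microtubule depolymerase KIF2C (-0.34, SE 0.0473), the Aurora A activator TPX2 (-0.34, SE 0.0374) and the pole-separating motor KIF11 (-0.33, SE 0.0403).

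Among 7 genes of the spindle midzone and cytokinesis, 6 fell, with a median log2 fold change of -0.38. KIF20A, a motor that carries the passenger complex to the midzone, had the largest fall of the 42 genes. Its level was 25.1 to 28.4 CPM in siNC (median 26.8) and 13.2 to 18.8 CPM in siZCC (median 15.7). Every siZCC library was far below the lowest siNC library, and the log2 fold change was -0.76 (SE 0.0601, adjusted p 5.66e-07). The chromokinesin KIF4A fell by 0.41 (SE 0.0465), the midbody motor KIF14 by 0.39 (SE 0.0675) and KIF23, the motor subunit of centralspindlin, by 0.38 (SE 0.0366). ANLN, anillin of the contractile ring, and ECT2, which activates RhoA for furrow formation, fell by 0.27 (SE 0.0413) and 0.25 (SE 0.0274). ECT2 was the least variable of these in siZCC, at 33.9 to 34.5 CPM over 6 libraries.

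Both chromosome genes fell. MKI67 codes for Ki-67, the protein that coats mitotic chromosomes and serves as a proliferation marker. It was at 177 to 223 CPM in siNC (median 208) and at 127 to 167 CPM in siZCC (median 141). The groups came close without overlapping, siNC replicate 3 being the lowest control and siZCC replicate 5 the highest treated library; the log2 fold change was -0.52 (SE 0.0609, adjusted p 1.90e-05). TOP2A, the topoisomerase that untangles sister chromatids, was at 191.63 to 234 CPM in siNC (median 202) and at 164 to 191.83 CPM in siZCC (median 170). It was the single called member with an overlap, since siZCC replicate 5 just exceeded siNC replicate 4, and its log2 fold change was -0.24 (SE 0.0464, adjusted p 0.00143).

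**Figure D2:**
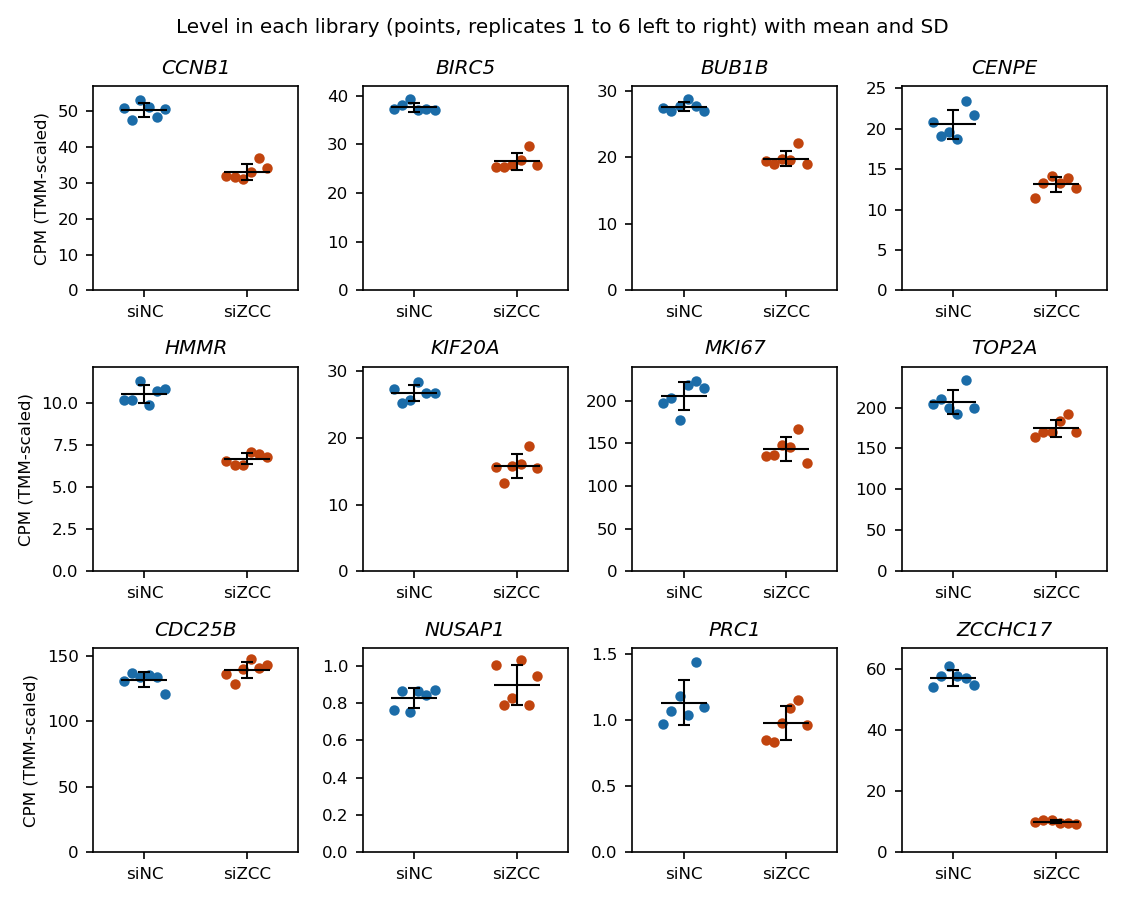
Level in CPM (y axis, from 0) of 12 genes in each library, with siNC in blue, siZCC in red, and black marks for the mean and SD of 6 libraries. The groups are apart for CCNB1, BIRC5, BUB1B, CENPE, HMMR, KIF20A, MKI67 and ZCCHC17, touch for TOP2A, and overlap for CDC25B, NUSAP1 and PRC1.

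NUSAP1 and PRC1 were measured at far lower levels than the other 40 genes. NUSAP1, which bundles spindle microtubules, was at 0.752 to 0.868 CPM in siNC (median 0.853) and at 0.789 to 1.03 CPM in siZCC (median 0.884), on 65 to 102 counts per library. PRC1, the bundler of midzone microtubules, was at 0.967 to 1.44 CPM in siNC (median 1.08) and at 0.837 to 1.15 CPM in siZCC (median 0.973), on 72 to 173 counts per library. Both pairs of ranges overlapped, with log2 fold changes of 0.12 for NUSAP1 (SE 0.0991, adjusted p 0.447) and -0.22 for PRC1 (SE 0.113, adjusted p 0.187). The 95% interval before adjustment reached from -0.08 to 0.31 for NUSAP1 and from -0.44 to 0.0041 for PRC1, so a change like the median of the 42 genes lies outside the first interval and inside the second.

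In the GENCODE v29 annotation of GRCh38, 62.2% of the exon bases of NUSAP1 (chromosome 15, 41332694 to 41381050) also belong to AC087721.2 on the same strand, a symbol with 0 to 7 counts per library. Likewise 57.6% of those of PRC1 (chromosome 15, 90966038 to 90995629) also belong to AC068831.7, a symbol that is not in the authors' table of counts per gene. The only other members with exons shared on the same strand were BUB1B (10.2%, with BUB1B-PAK6) and CENPA (6.96%, with SLC35F6). How the counting treated reads that fit more than 1 gene is not given in the sources used here, and its part in these low counts was not tested. Exons of 12 members overlap genes on the opposite strand, by 12.5% of the exon bases at most (PLK1), and the strand setting is not given either.

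Per length of exon (CPM per kilobase of merged GENCODE v29 exons), levels in siNC ran from 32.1 for TOP2A and 30.5 for CDC25B down to 2.18 for CENPE and 1.98 for KIF14, with NUSAP1 at 0.287 and PRC1 at 0.205. TPX2, CKAP2, CCNB1 and MKI67 followed TOP2A and CDC25B with 21.4, 21.2, 19.6 and 16.0. The size of the change did not follow the level closely: across the 39 called genes, which share their libraries, Spearman's rho between log2 CPM in siNC and log2 fold change was 0.215. KIF20A and ANLN, for example, had log2 fold changes of -0.76 and -0.27 at similar mean siNC levels of 26.7 and 26.0 CPM.

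The summed level of the 42 genes was 1740 to 1883 CPM in siNC and 1322 to 1516 CPM in siZCC. In each siZCC library, between 38 and 40 of the 42 genes were below every siNC library. siZCC replicate 5 had the smallest fall, with a median log2 difference from the siNC mean of -0.29, against -0.41 to -0.46 in the other 5 siZCC libraries. It was the highest siZCC library for 33 of the 42 genes and the lowest for 0. ZCCHC17 was at 9.76 CPM in that library, within the range of its group. Without siZCC replicate 5 the same 39 genes were called and the median log2 fold change was -0.44. Within siNC, replicate 5 was the highest library for 17 genes and replicate 2 the lowest for 14. Within siZCC, replicate 2 was the lowest library for 18 genes.

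**Figure D3:**
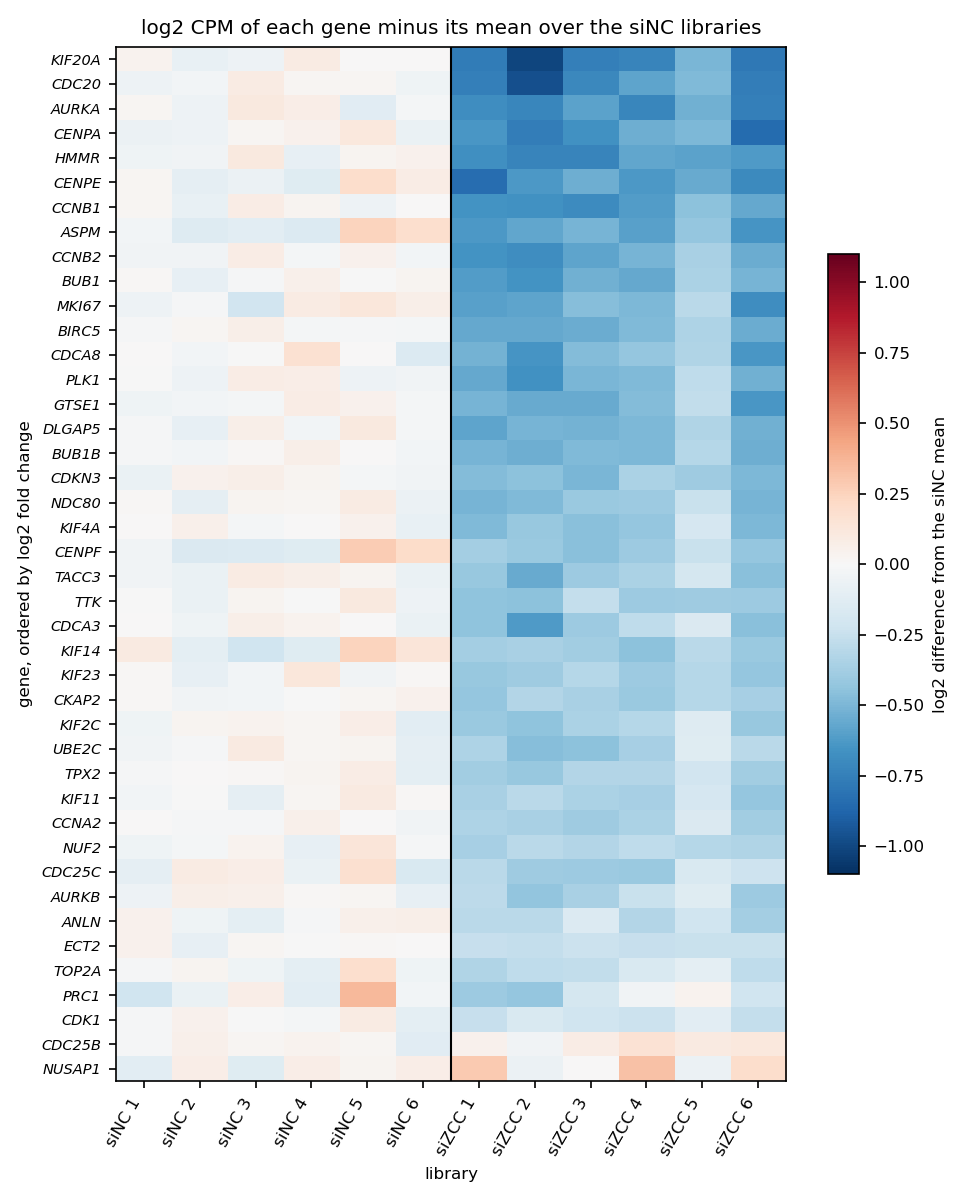
Log2 CPM of each gene (rows, ordered by log2 fold change) in each library (columns) minus that gene's mean over the siNC libraries; blue is lower and red higher. The siZCC columns are blue for all rows but those of CDC25B, NUSAP1 and, in part, PRC1, and siZCC replicate 5 is the palest for most genes.

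The libraries also differ in IL1B, which codes for an inflammatory cytokine and had 449 to 1512 counts in 6 libraries (siNC replicates 2, 3 and 6, siZCC replicates 1, 4 and 5) and 2 to 12 counts in the other 6. The labels name no batch. Within the libraries of high IL1B 34 of the 42 genes were called as lower, with a median log2 fold change of -0.35; within those of low IL1B 38 were called as lower, with a median of -0.48. All 39 genes called over the 12 libraries had a negative log2 fold change on both sides, and CDK1, CENPF, KIF14 and TOP2A were not called on the high side, CDC25C on neither. In a test of whether the change differs between the sides, 0 of 24671 genes were called by edgeR's quasi-likelihood test. Of the 42 genes, 6 had an unadjusted p under 0.05, and for 40 the log2 fold change was higher on the high side. These counts were not taken over all genes, so they cannot be set against such a share. The 42 genes also share their libraries and are not independent. Over all genes tested, the median log2 fold change was -0.00063 with high IL1B and -0.0014 with low IL1B. siZCC replicate 5 is among the libraries of high IL1B.

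Other genes of the same phases were examined through a list of 66 that are not among the 42. Of these, 52 fell (78.8%, against 10.8% of all genes tested) and 0 rose, with a median log2 fold change of -0.24. The siZCC libraries lay below the siNC libraries without overlap in 33 of the 66, against 4.5% of all genes tested. The largest change was in PIF1, a helicase gene transcribed in G2 and M, at -0.87 (SE 0.0776), from 9.90 ± 0.850 to 5.42 ± 0.668 CPM (SD, n = 6 each). NEK2, a centrosomal kinase, fell by 0.57 (SE 0.0508) and CDCA2, a phosphatase-targeting subunit on chromosomes, by 0.54 (SE 0.0469). Of their promoters in the RefSeq table, 40 of 64 (62.5%) held the homology region letters.

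S phase genes, which act in DNA replication just before, changed less. Of 40, 11 were called, all lower (27.5%, against 10.8% of all genes tested), with a median log2 fold change of -0.08. The lowest value was -0.25 for CLSPN (SE 0.0380), and FEN1 followed with -0.24 (SE 0.0375). The homology region letters were found in 2 of 44 of their promoters (4.55%), while CCAAT boxes were found in 29 (65.9%). The difference in change between the 2 lists was not tested.

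Transcriptional regulators of the G2 and M genes showed 3 falls and 0 rises among 22 (13.6% called as lower, near the 10.8% of all genes tested), with a median log2 fold change of -0.01. FOXM1, an activator that is itself a late cell cycle gene, was at 67.6 to 74.2 CPM in siNC (median 73.5) and at 55.8 to 66.7 CPM in siZCC (median 62.8). The groups of FOXM1 came close without overlapping (log2 fold change -0.21, SE 0.0415, adjusted p 0.00158). The other falls were in TFDP1 (-0.12, SE 0.0274), a partner of E2F factors, and RBL1 (-0.18, SE 0.0445), which codes for p107. Within the libraries of high and of low IL1B neither was called, with adjusted p of 0.178 and 0.0507 for TFDP1 and 0.121 and 0.117 for RBL1 in edgeR's test; FOXM1 was not called on the high side (adjusted p 0.113). MYBL2, the activator B-MYB, was at 47.6 to 54.7 CPM in siNC and 45.9 to 56.7 CPM in siZCC, with a log2 fold change of -0.01 (SE 0.0488, adjusted p 0.902). LIN54, the DREAM subunit that contacts the homology region, had a log2 fold change of 0.06 (SE 0.0388, adjusted p 0.260).

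Of 7 CDK inhibitor genes, 1 rose and 1 fell. The fall makes up 14.3% of the list, beside 10.8% called as lower and 11.4% as higher among all genes tested. CDKN1A, which codes for p21, was at 558 to 790.4 CPM in siNC (median 642) and at 869 to 1065 CPM in siZCC (median 1002). No siZCC library overlapped the siNC range, and the log2 fold change of CDKN1A was 0.59 (SE 0.0705, adjusted p 2.21e-05). CDKN2C, p18, fell by 0.38 on the log2 scale (SE 0.0519). Whether the rise of CDKN1A has a part in the fall of the 42 genes was not tested.

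**Figure D4:**
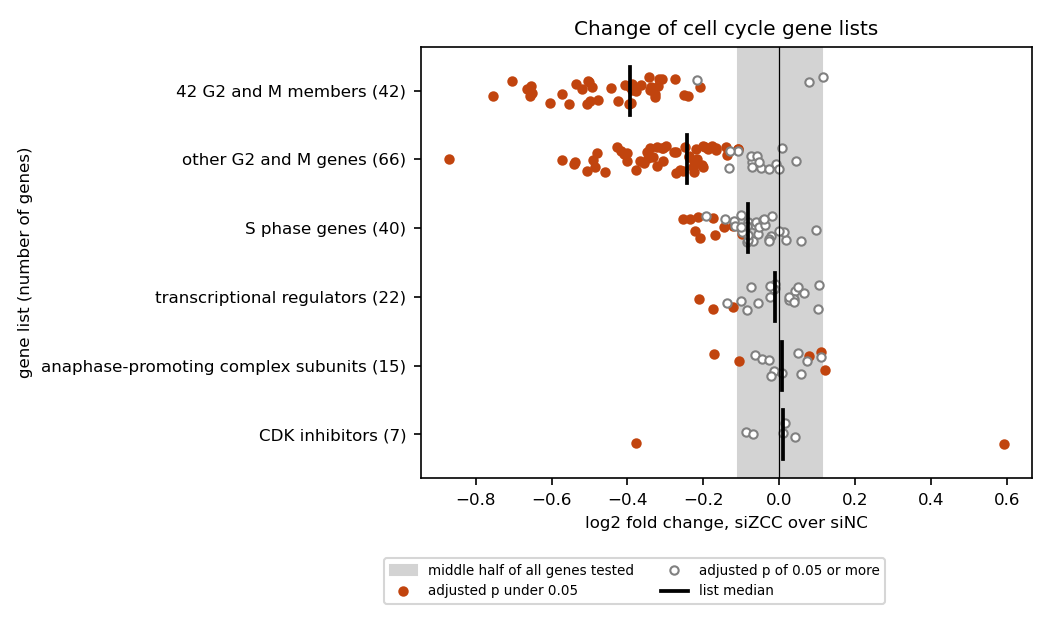
Log2 fold change (x axis) of every gene of 6 cell cycle lists (y axis, number of genes in brackets), with filled points for an adjusted p under 0.05, black bars for list medians and grey for the range between the quartiles of all genes tested. The medians lie at -0.39 for the 42 genes, -0.24 for other G2 and M genes and -0.08 for S phase genes, and near 0 for the rest; vertical scatter within a list has no meaning.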

How the data were processed

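Gene expression was measured by RNA-seq of total RNA in 12 libraries, 6 siNC and 6 siZCC, prepared with a NEBNext Ultra II Directional kit, per the labels' protocols. The authors deposited whole-number counts per gene symbol, not normalised. The submitters' processing notes name bcl2fastq 2.17, STAR 2.7.6a, featureCounts 2.0.1 and GRCh38; annotation, strand setting and handling of reads that fit more than 1 gene are not given in the sources used here. Groups and replicate numbers follow the sample titles.

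Counts were analysed in R 4.3.3 with edgeR 4.0.16: filterByExpr (24671 of 59653 symbols kept), TMM scaling, and the quasi-likelihood test over all genes with Benjamini-Hochberg adjustment and a threshold of 0.05. The standard error is the log2 fold change over the square root of F. The script was tested on simulated data. Replicates were compared by chi-square per degree of freedom (5.15 to 24.9 within groups), so none looked like a copy.

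The 42 members, the lists and the alternatives were chosen with earlier results of these data known, so they are no independent support of those results. Values in every library were summarised for the smallest p in each role, and for members not called or of opposite sign; of other lists, genes were named by smallest p, with FOXM1, MYBL2, LIN54 and CDKN1A named whatever their values. A gene that this rule would name is not reported here. The values of TOP2A by library and the promoters of CCNB2 and PLK1 were chosen after seeing the data. Alternatives were other scalings, filters and tools (DESeq2 1.42.0, limma 3.58.1), a replicate block, the IL1B split, a minimum change and leaving out each library; the test of a difference between IL1B sides was added after seeing the data. Exon lengths and overlaps come from GENCODE v29 and promoters from RefSeq, both on GRCh38. Figures were drawn with matplotlib 3.10.9 in Python 3.11.15.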

Additional observations from a re-analysis of the deposited data

Results flagged for a closer look

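Both ends of each group of 6 libraries were set against the nearest other library for the 42 genes, their summed level, ZCCHC17 and the library total. A gap to the nearest library above Dixon's critical share of the group's range was found in 10 of 90 groups of 6, where chance flags about 1 in 20, or 4.5; these quantities move together and are not independent.

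siZCC replicate 5 was the far highest of its group for 6 genes. CCNA2 was at 34.2 CPM there against 29.1 to 30.2 in the others (gap 0.785 of the range), BUB1B at 22.2 against 18.99 to 19.7 (0.767), KIF4A at 29.96 against 24.2 to 25.6 (0.757), DLGAP5 at 21.4 against 18.0 to 19.1 (0.687), BIRC5 at 29.7 against 25.4 to 26.9 (0.652) and CENPF at 101 against 86.8 to 92.0 (0.63). All 6 values were below the lowest siNC library.

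TTK was highest in siZCC replicate 3, at 12.4 CPM against 10.9 to 11.4 (0.674). ECT2 was lowest in siNC replicate 2, at 38.2 CPM against 40.6 to 42.01 (0.627). The summed level of the 42 genes was highest in siNC replicate 5, at 1883 CPM against 1740 to 1780 (0.721). siNC replicate 4 held 90755953 counts in all, where the other siNC libraries held 109973707 to 120023356 (0.657).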

How the results depend on the processing

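Of the 42 genes, 39 were called as lower under each other scaling, filter and tool and without any single library, where CDC25B was the one further call (39 to 40 genes). The 39 were lower in each of the 24 fits. Against a minimum change of 1.2-fold, a stricter test by construction, 22 of the 42, 11 of the 66 other G2 and M genes and 349 of all genes were called. Fits of 6 libraries gave 34 of the 42, 27 of the 66 and 2043 of all genes with high IL1B, and 38, 44 and 1602 with low IL1B; they hold fewer libraries. Leaving out each library gave 49 to 53 of the 66 and 4484 to 5626 of all genes, 24635 to 25109 being tested in these fits (5481 of 24671 with all libraries). With upper quartile scaling the genes called split into 2511 higher and 2905 lower, against 2818 and 2663. The labels do not say whether same-numbered libraries are pairs. Over all genes tested, correlations of deviations of same-numbered libraries ran from -0.077 to 0.0179, and no library correlated best with its own number. For the 42 genes, replicate 5 had the highest summed level in both groups (1883 CPM in siNC, 1516 CPM in siZCC). Replicate 2 was the lowest library for the most genes in both groups (14 in siNC, 18 in siZCC). With the replicate block 39 of the 42, 53 of the 66 and 4902 of all genes were called. MYBL2, near 0 throughout, turned to 0.0357 with high IL1B and, above 0 in 4 fits that left out a library, ran from -0.04163 to 0.01504 over such fits; the cause was not tested. CDC16 lost its call without any one of 10 libraries and CDC27 without any one of 8. FOXM1 was not called with high IL1B (-0.12, adjusted p 0.113), and TFDP1 and RBL1 on neither side. Counts limit the precision of NUSAP1 and PRC1.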
